A study of Mus musculus with 6 samples.

Results

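MHC class I antigen presentation was described from the RNA of 10 genes: the heavy chains H2-K1, H2-D1 and H2-T23, the light chain B2m, the peptide transporter subunits Tap1 and Tap2, the loading factor Tapbp, the peptidase Erap1, the transcriptional activator Nlrc5 and the checkpoint ligand Cd274. The genes were chosen by symbol, with earlier results of these data known. All 10 were found among the 35688 gene rows of the deposited table, and 8 of them averaged 1 TPM or more across all libraries, the level needed for testing, as did 12257 genes in all. TPM here means the deposited abundance, which is corrected for transcript length and library size.

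The libraries were made from poly(A)-selected RNA of m1102, a cell line of mouse ovarian surface epithelium, which is the layer that covers the ovary and is broken open at ovulation. Cells given 10 ng/mL of the cytokine TGFB1 over 4 days (3 libraries) were compared with untreated cells of the same line (3 libraries). All 6 libraries come from this 1 line, grown in medium with FBS, ITSS and EGF, and the labels do not say whether the replicates were separate cultures. The p-values therefore measure only the spread between these libraries, which may be technical. The sources used here do not give the mouse strain behind m1102, and class I heavy chains are highly polymorphic between strains, and how well the alleles of the line match the reference sequence was not tested.

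Class I molecules show short peptides from inside the cell to CD8 T cells. Proteasomes cut proteins into peptides, the TAP transporter carries these into the endoplasmic reticulum, ERAP1 trims them, and tapasin (Tapbp) and its partner chaperones load them onto a heavy chain paired with beta-2-microglobulin (B2m). H2-K1 and H2-D1 are the classical mouse heavy chains, whereas H2-T23 encodes Qa-1, a non-classical heavy chain that presents signal peptides to the inhibitory receptor CD94/NKG2A of natural killer cells. NLRC5 and interferon-driven factors are known to raise transcription of most of these genes, and TGFB1 is known as an immune-suppressive cytokine and an inducer of epithelial-mesenchymal transition. Cd274 encodes PD-L1, which presents no peptide and restrains T cells through PD-1.

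The starts of 7 of the genes are shown so that heavy chains, light chain and loading genes can be compared at the letters that class I regulators are known to read. Each line is a window of 200 bases on the gene's own strand, from 180 bases before the annotated start to 20 bases into the transcript, from RefSeq on GRCm38.p6. Capitals mark matches, on either strand, to 4 motifs: the interferon regulatory factor core AANNGAAA, the NF-Y box CCAAT, the CREB half-site TGACG and the kappaB palindrome, which is the first run of capitals in the H2-K1 and H2-D1 lines. No matched motif overlapped another in these windows. Of the 10 genes, 8 had an entry in the promoter table. Tap2 and Nlrc5 are named only.
H2-K1: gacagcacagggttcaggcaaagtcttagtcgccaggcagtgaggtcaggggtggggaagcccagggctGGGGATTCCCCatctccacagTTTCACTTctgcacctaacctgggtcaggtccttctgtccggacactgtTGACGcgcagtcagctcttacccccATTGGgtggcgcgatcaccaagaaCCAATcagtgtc
H2-D1: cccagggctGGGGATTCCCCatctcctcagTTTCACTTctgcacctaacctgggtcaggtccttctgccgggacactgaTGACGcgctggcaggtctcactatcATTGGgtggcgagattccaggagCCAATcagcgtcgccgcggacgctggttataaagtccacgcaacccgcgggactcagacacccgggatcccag
B2m: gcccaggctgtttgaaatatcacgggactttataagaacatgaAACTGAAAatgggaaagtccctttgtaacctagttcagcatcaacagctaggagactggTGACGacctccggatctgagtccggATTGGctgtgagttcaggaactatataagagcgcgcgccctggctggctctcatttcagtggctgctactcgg
Tap1: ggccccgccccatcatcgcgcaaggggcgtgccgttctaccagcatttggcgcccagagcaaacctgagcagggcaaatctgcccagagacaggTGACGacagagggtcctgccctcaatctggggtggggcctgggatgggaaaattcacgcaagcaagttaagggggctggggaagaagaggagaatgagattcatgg
H2-T23: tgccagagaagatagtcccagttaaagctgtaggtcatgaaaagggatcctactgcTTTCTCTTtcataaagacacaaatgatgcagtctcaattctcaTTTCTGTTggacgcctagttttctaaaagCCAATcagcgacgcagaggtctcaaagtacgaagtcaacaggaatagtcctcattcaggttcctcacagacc
Tapbp: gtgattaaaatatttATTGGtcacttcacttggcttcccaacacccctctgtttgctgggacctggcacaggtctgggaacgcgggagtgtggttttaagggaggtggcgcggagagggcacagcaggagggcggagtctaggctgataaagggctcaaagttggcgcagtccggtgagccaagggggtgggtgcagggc
Erap1: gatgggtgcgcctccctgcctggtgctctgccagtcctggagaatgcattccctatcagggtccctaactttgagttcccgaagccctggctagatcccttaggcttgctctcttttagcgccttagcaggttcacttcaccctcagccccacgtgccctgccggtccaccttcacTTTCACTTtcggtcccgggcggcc

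The H2-K1 window lies at chr17:34000328-34000527, H2-D1 at chr17:35262914-35263113, B2m at chr2:122147507-122147706, Tap1 at chr17:34187376-34187575, H2-T23 at chr17:36032682-36032881, Tapbp at chr17:33919298-33919497 and Erap1 at chr13:74639673-74639872. H2-K1 and H2-T23 read from the minus strand and the others from the plus strand. The windows follow RefSeq starts, which can differ from the GENCODE gene starts given below. Those of Tapbp, H2-D1 and Erap1 lie wholly inside the GENCODE gene, that of Tapbp furthest from its start. Among 32851 promoter windows of the same length, the kappaB palindrome was found in 0.0274%, which is 9 windows, the interferon core in 16.5%, the NF-Y box in 29.2% and the CREB half-site in 16.5%. The 2 classical heavy chains shared 1 layout: in both windows the interferon core began 21 bases, the CREB half-site 70 bases and the inverted NF-Y box 95 bases after the start of the kappaB palindrome. B2m held an interferon core, a CREB half-site and an inverted NF-Y box, and Tap1 held only the CREB half-site. H2-T23 held 2 interferon cores and an NF-Y box, Tapbp an inverted NF-Y box alone, and Erap1 an interferon core at its start. A match describes letters and not binding, and a missing match says only that these letters are not in the window.

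The surface epithelium label was checked against 20 markers of ovarian surface epithelium and mesothelium. Of these, 14 averaged 1 TPM or more, among them Krt7, Krt18 and Wt1, while the keratin Krt8 and the cadherin Cdh1 were among the 6 under it. After TGFB1, 6 of the 14 were lower and 1 was higher, and the summed level of the 20 was between 1788 and 2350 TPM in the TGFB1 libraries, against 3096 to 3169 TPM in the untreated libraries. The part of this marker change in the class I values was not tested. Of 28 markers of immune and endothelial cells, 24 had a mean under 1 TPM and 3 were at 0 in every library, the neutrophil gene Ly6g, the myeloid adaptor Tyrobp and the granzyme Gzma. These 3, and Krt8 and Cdh1, were named after their values were seen. The summed level of the 28 lay between 22.6 and 26.6 TPM with TGFB1 and between 30.6 and 38.5 TPM without it, most of it from Cd68 and Zbtb46. Of the 4 tested markers, Cd68 was lower with TGFB1 (log2 fold change -1.27), Zbtb46 was higher (0.38, adjusted p = 0.0399, a call lost in 7 of 16 alternatives) and 2 did not pass. The pan-leukocyte gene Ptprc averaged 0.0447 ± 0.00358 TPM in TGFB1 libraries and 0.0739 ± 0.0128 TPM in untreated libraries (mean ± SD, n = 3 each, as throughout). In bulk RNA, fewer cells of a type and less RNA per cell cannot be told apart. Of 15 tested genes known to respond to TGFB1, 7 were higher, among them Col1a1 (log2 fold change 4.35), 2 were lower and 6 did not pass. The count of lower ones was 1 without untreated replicate 1, 0 without untreated replicate 2 or 3, and 3 without TGFB1 replicate 1. TGFB1 replicate 1 stood apart, at 46.6 on a first principal component with 70.7% of the variance, against 20.2 and 18.1 for the other TGFB1 libraries and -29.8 to -27.1 for the untreated ones. Results without it are given for some genes and lists only. Other fold changes moved in either direction without it, such as Gbp3 (-1.22 to -0.83) and H2-T10 (-0.79 to -0.89). The median of the 14 tested surface markers was -0.47, and -0.20 without TGFB1 replicate 1. Read depth is unknown, so no counting interval is given, and an abundance under 1 TPM is only weakly measured.

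After TGFB1, 4 of the 8 tested genes fell, 0 rose and 4 did not pass the test. Tapbp, Tap2, Erap1 and H2-T23 were at between 41.7% and 46.0% of their untreated mean, whereas the classical heavy chains H2-K1 and H2-D1, B2m and Tap1 were not called. Calls rest on limma with a threshold of 0.05 on p-values adjusted by Benjamini-Hochberg over all 12257 genes, and all adjusted p-values of genes below come from that test. By this rule 14.6% of all tested genes were lower, 15.8% higher and 30.4% called in either direction. All 4 of the called class I genes were at least 2-fold lower as computed from log2(TPM + 1). Being called and lower by that much on that scale held for 293 genes or 2.39% of those tested. A gene of low abundance can miss this cut although its mean TPM is more than 2-fold lower. The median log2 fold change of the 8 was -0.64, against 0.015 over all tested genes. The TGFB1 and untreated libraries did not overlap for 6 of the 8, where 49.8% of all tested genes show this. Because the set was chosen with earlier results of these data known, its comparison with all tested genes is a description only. Each of the 8 was above 1 TPM in every library, so none was tested only because of its level in 1 group. Every log2 fold change was computed from log2(TPM + 1) and so is too small for genes of low abundance.

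**Figure D1:**
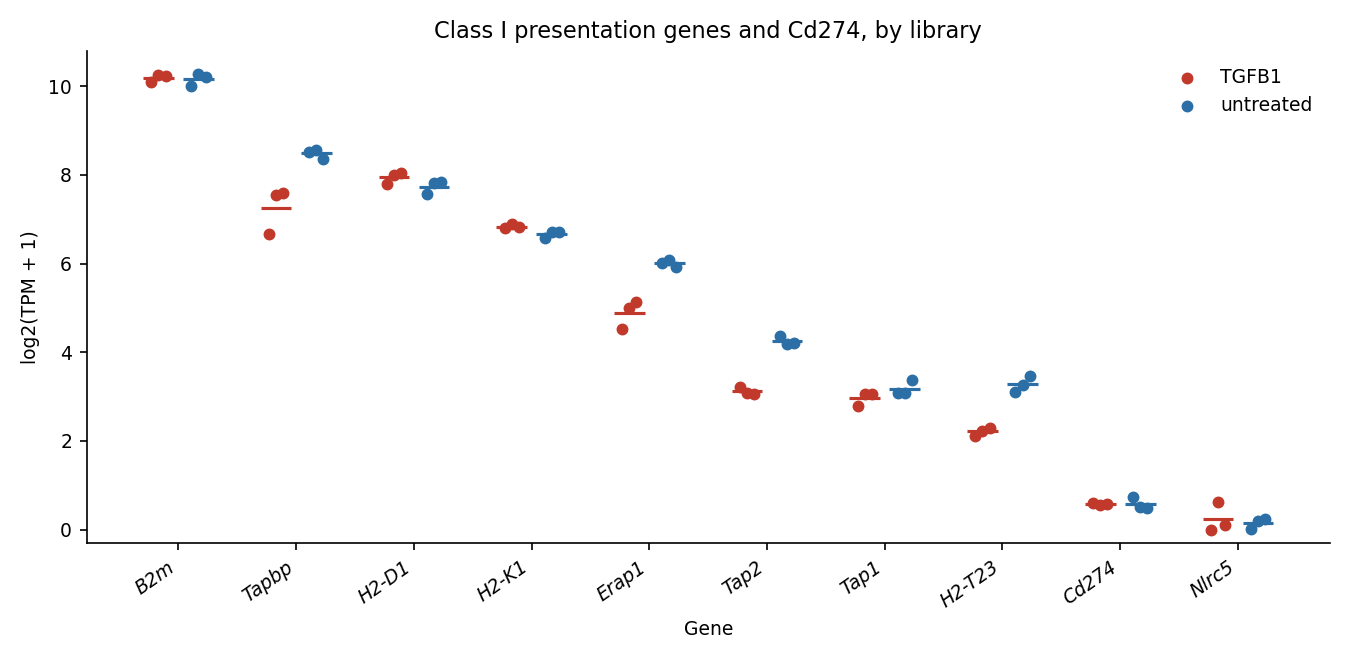
Abundance of the 10 genes in each library, as log2(TPM + 1) on the y axis, ordered by overall level on the x axis, with points for the 3 TGFB1 (red) and 3 untreated (blue) libraries and bars for group means. Tapbp, Erap1, Tap2 and H2-T23 show separated groups with TGFB1 below, B2m, H2-D1 and H2-K1 lie at nearly the same height in both groups, and Cd274 and Nlrc5 sit near 0.

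On this per-length scale B2m was the most abundant of the 10 transcripts in both groups, at 1172 ± 65.0 TPM with TGFB1 and 1156 ± 111 TPM untreated. In TGFB1 libraries H2-D1 came next, followed by Tapbp and H2-K1, whose libraries overlapped, then Erap1, then Tap2 and Tap1, which also overlapped, then H2-T23. In untreated libraries Tapbp stood above H2-D1, and the order continued with H2-K1, Erap1 and Tap2 before H2-T23 and Tap1, which overlapped. Cd274 and Nlrc5 closed both orders, and they overlapped in the TGFB1 libraries.

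Gene positions are those of GENCODE M21 on GRCm38. H2-K1 (ENSMUSG00000061232, chr17:33996017-34000347, minus strand) encodes the classical heavy chain H-2K. It was at 110, 117 and 113 TPM in TGFB1 libraries 1 to 3, against 94.3, 104 and 104 TPM in the untreated libraries. The TGFB1 libraries lay above the untreated ones without overlap, by a margin close to the spread within each group. The log2 fold change of 0.17 (SE 0.062) did not pass the test (adjusted p = 0.0774), and its 95% interval ran from 0.03 to 0.32. Once the libraries were rescaled without mitochondrial and the 20 most abundant genes, it was called higher (0.22, adjusted p = 0.0385).

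H2-D1 (ENSMUSG00000073411, chr17:35262730-35267499), the classical heavy chain H-2D, was at 221, 254 and 264 TPM with TGFB1, against 189, 224 and 227 TPM untreated. The groups overlapped, because TGFB1 replicate 1 lay below untreated replicates 2 and 3. Its log2 fold change was 0.21 (SE 0.099, adjusted p = 0.153), with an interval from -0.03 to 0.45. Without TGFB1 replicate 1 it was 0.29 and passed (adjusted p = 0.0463). The ratio of H2-D1 to H2-K1 was 2.00, 2.17 and 2.34 in TGFB1 libraries and 2.00, 2.16 and 2.18 in untreated libraries, overlapping ranges. Of the 31-base stretches in the annotated transcripts, 22.8% of those of H2-K1 and 26.9% of those of H2-D1 also occur in another gene, so reads of the heavy chains could be divided between relatives.

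B2m (ENSMUSG00000060802, chr2:122147686-122153083), the light chain that pairs with class I heavy chains, was at 1098, 1220 and 1199 TPM with TGFB1, against 1033, 1248 and 1187 TPM untreated. The libraries of the groups were interleaved. For B2m the log2 fold change was 0.02 (SE 0.084, adjusted p = 0.859) with a 95% interval from -0.17 to 0.22, so a change of more than 0.22 in either direction lies outside that interval. Leaving out 1 library at a time moved it between -0.06 and 0.08.

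H2-T23 (ENSMUSG00000067212, chr17:36029773-36032855, minus strand) was the heavy chain of the set that fell. Its libraries were at 3.33, 3.71 and 3.90 TPM with TGFB1, against 7.61, 8.64 and 10.0 TPM untreated. Every TGFB1 library was below every untreated one, and the TGFB1 mean was 41.7% of the untreated mean. H2-T23 had a log2 fold change of -1.06 (SE 0.119, adjusted p = 0.00163). It was -1.01 without TGFB1 replicate 1, and the call held in all 16 alternative settings run. Of its 31-base stretches, 25.8% occur in another gene.

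In sums over the 3 heavy chains, their ratio to B2m was 0.305, 0.307 and 0.318 in TGFB1 libraries, against 0.281, 0.269 and 0.287 in untreated libraries. The TGFB1 libraries were higher without overlap, by 0.15 on the log2 scale (exact permutation test over libraries, two-sided, p = 0.1, the smallest that 3 against 3 allows). This sum is mostly H2-D1 and H2-K1. With geometric means, in which the low H2-T23 weighs as much as the others, the difference was -0.25 (exact p = 0.1), the opposite direction. H2-T23 relative to H2-K1 was 0.0302, 0.0317 and 0.0346 with TGFB1, against 0.0807, 0.0833 and 0.0963 untreated.

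Tap1 and Tap2 encode the 2 chains of the peptide transporter and lie near each other on chromosome 17. Tap2 (ENSMUSG00000024339, chr17:34203527-34216321) was at 8.37, 7.46 and 7.32 TPM with TGFB1, against 19.5, 17.2 and 17.4 TPM untreated. The groups were far apart, with TGFB1 at 42.8% of the untreated mean. The log2 fold change was -1.13 (SE 0.087, adjusted p = 0.000494), the smallest adjusted p of the 8 genes. Tap2 was called lower in all 16 alternatives. Among its 31-base stretches, 14.3% occur in another gene, and 11.3% occur in Gm15821, which overlaps it on the opposite strand.

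Tap1 (ENSMUSG00000037321, chr17:34187553-34197225) was at 5.88, 7.32 and 7.37 TPM with TGFB1, against 7.42, 7.45 and 9.40 TPM untreated. The groups did not overlap, but TGFB1 replicates 2 and 3 lay close below the lower untreated libraries. The log2 fold change of -0.21 (SE 0.128) did not pass (adjusted p = 0.261), its 95% interval ran from -0.51 to 0.10, and it passed in 0 of 16 alternatives. The ratio of Tap2 to Tap1 was 1.42, 1.02 and 0.993 in TGFB1 libraries, against 2.63, 2.31 and 1.86 in untreated libraries, again without overlap. Tap1 starts inside Psmb9 on the opposite strand, and 4.09% of its 31-base stretches occur in another gene.

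Tapbp (ENSMUSG00000024308, chr17:33915899-33929292), which encodes tapasin, the bridge between the transporter and the empty heavy chain, fell as well. It was at 101, 185 and 191 TPM with TGFB1, against 368, 379 and 329 TPM untreated. All TGFB1 libraries were lower, and replicate 1 was well below the other 2. Its log2 fold change was -1.22 (SE 0.234, adjusted p = 0.0100), and -0.93 without TGFB1 replicate 1 (adjusted p = 0.000269). It was called in all 16 alternatives. Tapbp relative to B2m was 0.0923, 0.151 and 0.159 with TGFB1, against 0.356, 0.303 and 0.277 untreated. The annotated Tapbp gene overlaps Zbtb22 on the same strand, which was at 25.6 TPM with TGFB1 and 25.3 TPM untreated. Of the Tapbp stretches, 26.9% occur in another gene, and 22.1% occur in Gm19412, an overlapping antisense gene. Part of the Tapbp level is therefore uncertain.

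Erap1 (ENSMUSG00000021583, chr13:74639568-74693201), the aminopeptidase that trims peptides in the endoplasmic reticulum, was at 21.9, 31.1 and 34.4 TPM with TGFB1, against 63.2, 67.2 and 59.6 TPM untreated. The groups were separated and replicate 1 was again the lowest TGFB1 library. Erap1 had a log2 fold change of -1.12 (SE 0.159, adjusted p = 0.00363), and -0.93 without TGFB1 replicate 1. It was called in all 16 alternatives. Erap1 overlaps Cast on the opposite strand, which averaged 84.3 TPM with TGFB1 and 78.8 TPM untreated, and the sources used here do not say whether strand was used in counting.

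Nlrc5 (ENSMUSG00000074151, chr8:94434356-94527272), the class I transactivator, was at 0, 0.548 and 0.072 TPM with TGFB1, against 0.0143, 0.145 and 0.189 TPM untreated. Cd274 (ENSMUSG00000016496, chr19:29367455-29388095) was at 0.520, 0.481 and 0.490 TPM with TGFB1, against 0.669, 0.426 and 0.404 TPM untreated. The groups overlapped for both genes, and neither reached the level for testing. In a fit without the filter, Nlrc5 had a log2 fold change of 0.09 (adjusted p = 0.789) and Cd274 one of 0.00 (adjusted p = 0.991). No difference was detected in either gene, and such low levels are only weakly measured.

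The steps before and around the 10 genes were described from lists of textbook genes. Relative to a background of 15.8% higher and 14.6% lower, the lists differed in direction, and the counts that follow carry no test of a list. Leaving out any library except TGFB1 replicate 1 also lowered the calls over all genes. Without untreated replicate 1 these were 1181 higher and 1130 lower, against 1937 and 1788 with all libraries. The immunoproteasome is the interferon-inducible form that swaps 3 catalytic subunits and is known for making peptides that fit class I. Of its 5 listed genes 4 were tested, and these 4 fell (median log2 fold change -0.87), but Psmb9 averaged under 1 TPM with TGFB1 and was tested only through its untreated level. Psmb10, the MECL-1 subunit, was at 31.8, 44.8 and 43.7 TPM with TGFB1, against 156, 116 and 128 TPM untreated (log2 fold change -1.72, SE 0.160, adjusted p = 0.000898). The proteasome activator genes Psme1 (-0.75, adjusted p = 0.00153) and Psme2 (-0.89, adjusted p = 0.00157) were each separated between groups. Psme2 shares 33.5% of its stretches with other genes. Psmb9, the LMP2 subunit next to Tap1, was low, at 1.02, 0.768 and 0.377 TPM with TGFB1, against 2.51, 1.86 and 1.81 TPM untreated (-0.84, adjusted p = 0.0198). Its call was lost without any 1 of the untreated libraries (adjusted p up to 0.0698). Psmb8, the LMP7 subunit, was under the filter, at 0.456, 0.165 and 0.357 TPM with TGFB1, against 0.866, 0.444 and 0.713 TPM untreated.

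Of the constitutive partners 0 fell and 1 rose. Psmb5 rose (0.25, adjusted p = 0.0386), but this call failed in 8 of 16 alternatives and 71.7% of its stretches occur in other genes. Psmb6 (0.22, adjusted p = 0.0967) and Psmb7 (0.06, adjusted p = 0.638) did not pass. The summed immunoproteasome subunits relative to the constitutive ones were 0.0387, 0.0607 and 0.0585 in TGFB1 libraries, against 0.208, 0.180 and 0.185 in untreated libraries. Every TGFB1 ratio was below every untreated one, with a log2 difference of -1.89 (exact permutation test, two-sided, p = 0.1, the smallest possible). The immunoproteasome sum is mostly Psmb10, which averaged 40.1 TPM with TGFB1 and 134 TPM untreated. Psmb9 averaged 0.722 TPM with TGFB1 and 2.06 TPM untreated, and Psmb8 0.326 and 0.674 TPM. The summed ratio therefore mainly follows 1 gene. With geometric means the difference was -1.14.

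**Figure D2:**
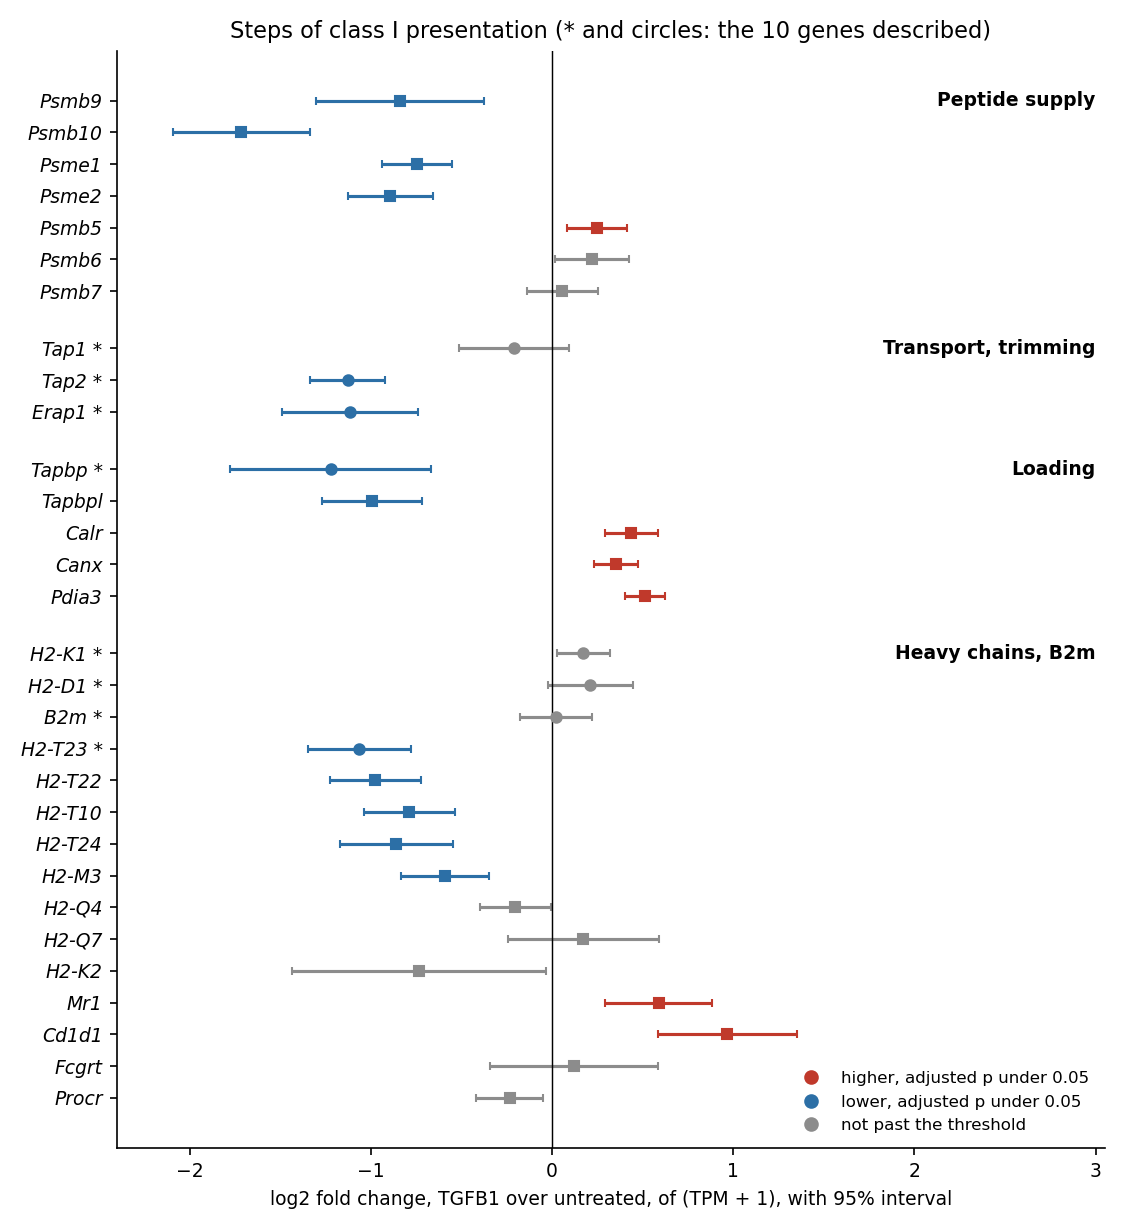
Log2 fold change, TGFB1 over untreated (x axis, points), with the 95% interval from limma (bars) for tested genes grouped by step of class I presentation; circles and asterisks mark the genes of the set. Genes called lower are immunoproteasome genes, Tap2, Erap1, Tapbp, Tapbpl and 5 non-classical heavy chains, from -1.72 for Psmb10 to -0.59 for H2-M3, and genes called higher include Calr, Canx, Pdia3, Mr1 and Cd1d1.

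In the loading step, chaperones moved the other way from tapasin. Of 15 genes of loading and quality control in the endoplasmic reticulum, 10 rose, 1 fell and 4 did not pass, with a median of 0.39. The chaperone genes Hsp90b1 (0.71, adjusted p = 0.000291), Hspa5 (0.60, adjusted p = 0.00403) and Pdia4 (0.58, adjusted p = 0.000676) had the largest rises. Hsp90b1 was at 1412, 1400 and 1361 TPM with TGFB1, against 842, 856 and 856 TPM untreated. The direct partners of tapasin in the loading complex, Calr (0.44), Canx (0.35) and Pdia3 (0.51), rose too. These 3 were named after their values were seen. The gene that fell was Tapbpl, which encodes the tapasin relative and peptide editor TAPBPR, at 5.91, 6.46 and 6.26 TPM with TGFB1, against 15.7, 13 and 11.7 TPM untreated (-0.995, SE 0.116, adjusted p = 0.00193). Without TGFB1 replicate 1, 2 of the 15 were lower.

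Among 11 tested peptidases that trim or destroy peptides outside this step, 5 rose and 2 fell (median 0.07), but without untreated replicate 1 or 2 only 1 was higher, and without untreated replicate 3 or TGFB1 replicate 2 or 3 it was 2. In each of these fits 1 was lower. Rnpep, aminopeptidase B, rose (0.46, adjusted p = 0.00596) and the dipeptidase Pepd fell (-0.34, adjusted p = 0.00676). The rises of the cytosolic peptidases Thop1 (0.58, adjusted p = 0.0315) and Tpp2 (0.30, adjusted p = 0.0208) were lost in 5 and 3 of 16 alternatives.

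Other class I and class I-like heavy chains followed H2-T23 in part. Of 21 listed, 11 were tested, 4 fell, 2 rose and 5 did not pass, with a median of -0.23. H2-T22, a ligand of some gamma-delta T cells, was at 6.14, 4.95 and 4.84 TPM with TGFB1, against 12, 10.9 and 11.2 TPM untreated (-0.98, SE 0.105, adjusted p = 0.00146). Its relative H2-T10 was at 28.3, 22.8 and 22 TPM with TGFB1, against 43.8, 39.7 and 44.1 TPM untreated (-0.79, SE 0.105, adjusted p = 0.00291). The groups were separated for both, but H2-T22 shares 67.4% and H2-T10 64.2% of their stretches with other genes, so the 2 are not independent measurements. H2-T24 (-0.86, adjusted p = 0.00453) and H2-M3, which presents formylated peptides (-0.59, adjusted p = 0.00699), also fell. So 5 of the non-classical H2 genes tested fell, H2-T23 included, and neither H2-Q4 (-0.20, adjusted p = 0.108) nor H2-Q7 (0.17, adjusted p = 0.492) passed.

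The 2 that rose present other cargo and lie off chromosome 17. Cd1d1, which presents lipids to natural killer T cells, was at 13.7, 21.3 and 20.5 TPM with TGFB1, against 8.67, 9.24 and 8.49 TPM untreated (0.97, SE 0.162, adjusted p = 0.00620). Here TGFB1 replicate 1 was the closest to the untreated libraries, and without it the value was 1.16. Mr1, which presents microbial vitamin B metabolites, was at 35.4, 27.5 and 26.6 TPM with TGFB1, against 17.5, 20.5 and 20.2 TPM untreated (0.59, adjusted p = 0.0141). The Mr1 call was lost without untreated replicate 1 (adjusted p = 0.0518). Fcgrt, the neonatal Fc receptor (0.12), Procr, the endothelial protein C receptor (-0.23, adjusted p = 0.062), and H2-K2 (-0.73, adjusted p = 0.105) did not pass. Without TGFB1 replicate 1, Procr was called lower (-0.31, adjusted p = 0.0078), which made 5 of the list lower. The other 10, among them H2-Q1, H2-Q2, H2-Q6, H2-Q10 and Hfe, had a mean under 1 TPM, and Cd1d2 was at 0 in every library.

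**Figure D3:**
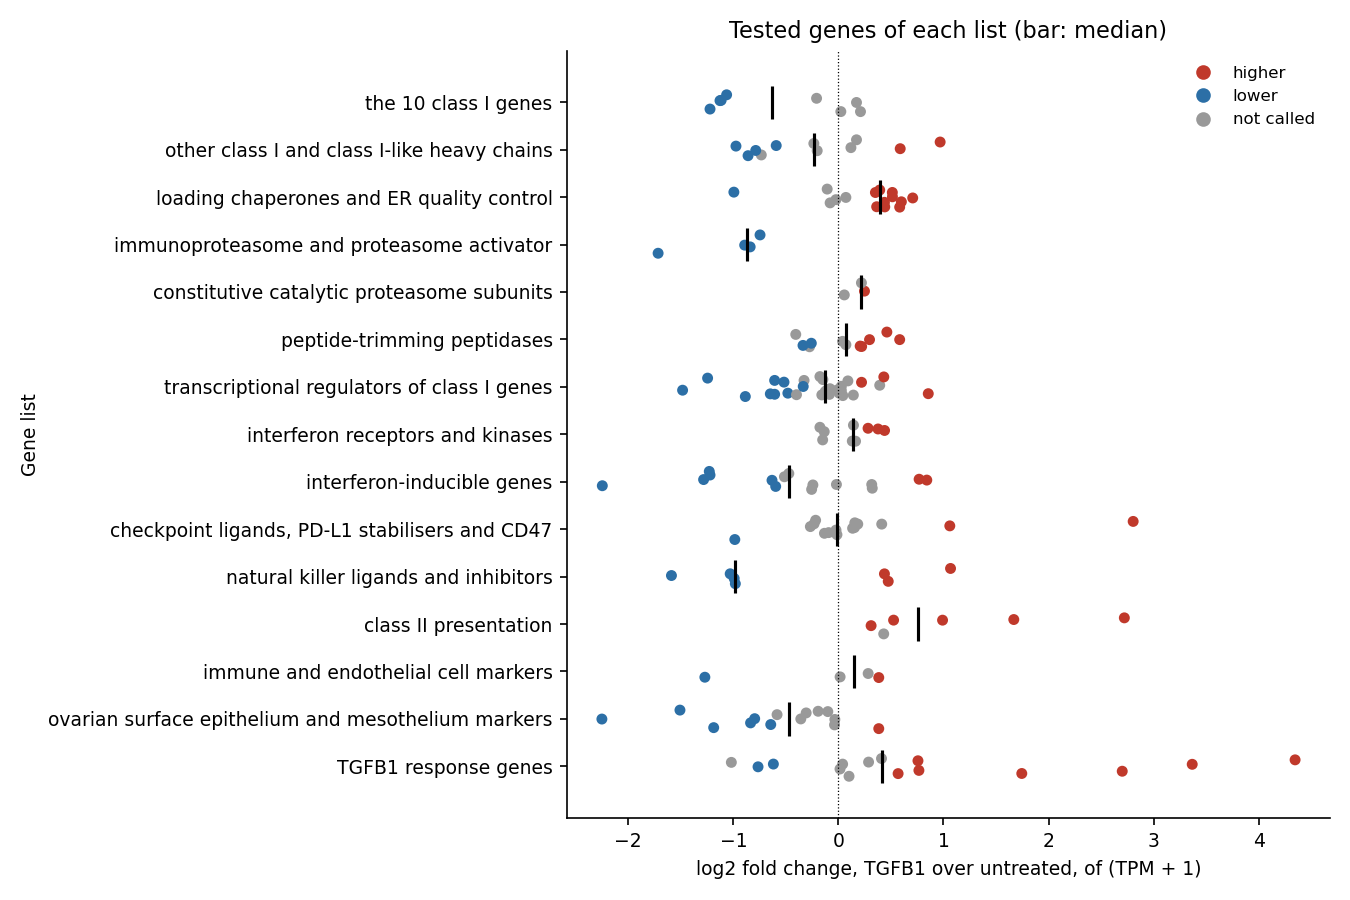
Log2 fold change of each tested gene (x axis, points; red higher, blue lower, grey not called) by list (y axis), with a black bar at the list median. The top row shows the 8 tested genes of the set, 4 lower and 4 not called, the immunoproteasome points all lie below 0, the loading chaperones lie mostly above 0 and the class II points all lie above 0.

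Regulators of class I transcription were mixed. Of 30 listed, 29 were tested, 9 fell, 3 rose and 17 did not pass, with a median of -0.12. Irf1, an interferon regulatory factor known to act at the interferon core, was at 23.2, 44.2 and 47.4 TPM with TGFB1, against 97.5, 83.1 and 83.9 TPM untreated (-1.25, SE 0.255, adjusted p = 0.0127). All TGFB1 libraries were lower and replicate 1 the lowest. It was -0.93 without that library, and the call was lost without untreated replicate 1 (adjusted p = 0.052). Irf2 (-0.61, adjusted p = 0.0169) and Rfx5 (-0.52, adjusted p = 0.0268), a DNA-binding subunit of the RFX complex at class I and II promoters, fell, but their calls failed in 3 and 5 of 16 alternatives. Socs3, an inhibitor of cytokine signalling, fell (-1.48, adjusted p = 0.00426), as did the NF-kappaB subunit Relb (-0.89, adjusted p = 0.00601). Usp18, a restraint on type I interferon signalling, rose (0.86, adjusted p = 0.00918), but averaged 0.60 TPM in untreated libraries and was tested only through its level of 1.89 TPM with TGFB1. The NF-kappaB subunit Rela (0.01, adjusted p = 0.941) did not pass. The number of regulators that were lower was 5 without any 1 of the untreated libraries and 4 without TGFB1 replicate 2.

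Of 9 genes of interferon receptors and their signalling, 0 fell and 3 rose, Ptpn11 (0.44, adjusted p = 0.00214), Ifnar1 (0.38, adjusted p = 0.00815) and Ifngr1 (0.28, adjusted p = 0.0379), although the Ifngr1 call failed in 8 of 16 alternatives. Of 15 tested interferon-inducible genes, 6 fell and 2 rose, with a median of -0.47 that was -0.17 without TGFB1 replicate 1. Without untreated replicate 1 or 2, 3 of them were lower. The guanylate-binding protein gene Gbp2, at 23.2% of its untreated mean, was at 4.35, 18.3 and 18.3 TPM with TGFB1, against 55.2, 66.1 and 55.5 TPM untreated (-2.25, SE 0.479, adjusted p = 0.0146). It was -1.63 without TGFB1 replicate 1, and its call was lost without untreated replicate 1 or 2 (adjusted p up to 0.0544). Its relatives Gbp4 (-1.28, adjusted p = 0.00573), at 15.8% of its untreated mean and tested only through its level in untreated libraries, Gbp7 (-1.23, adjusted p = 0.00716) and Gbp3 (-1.22, adjusted p = 0.027) also fell, Gbp3 with a call lost in 4 alternatives. Isg15 (0.77) and Irgm1 (0.84) were the 2 that rose, named after their values were seen.

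**Figure D4:**
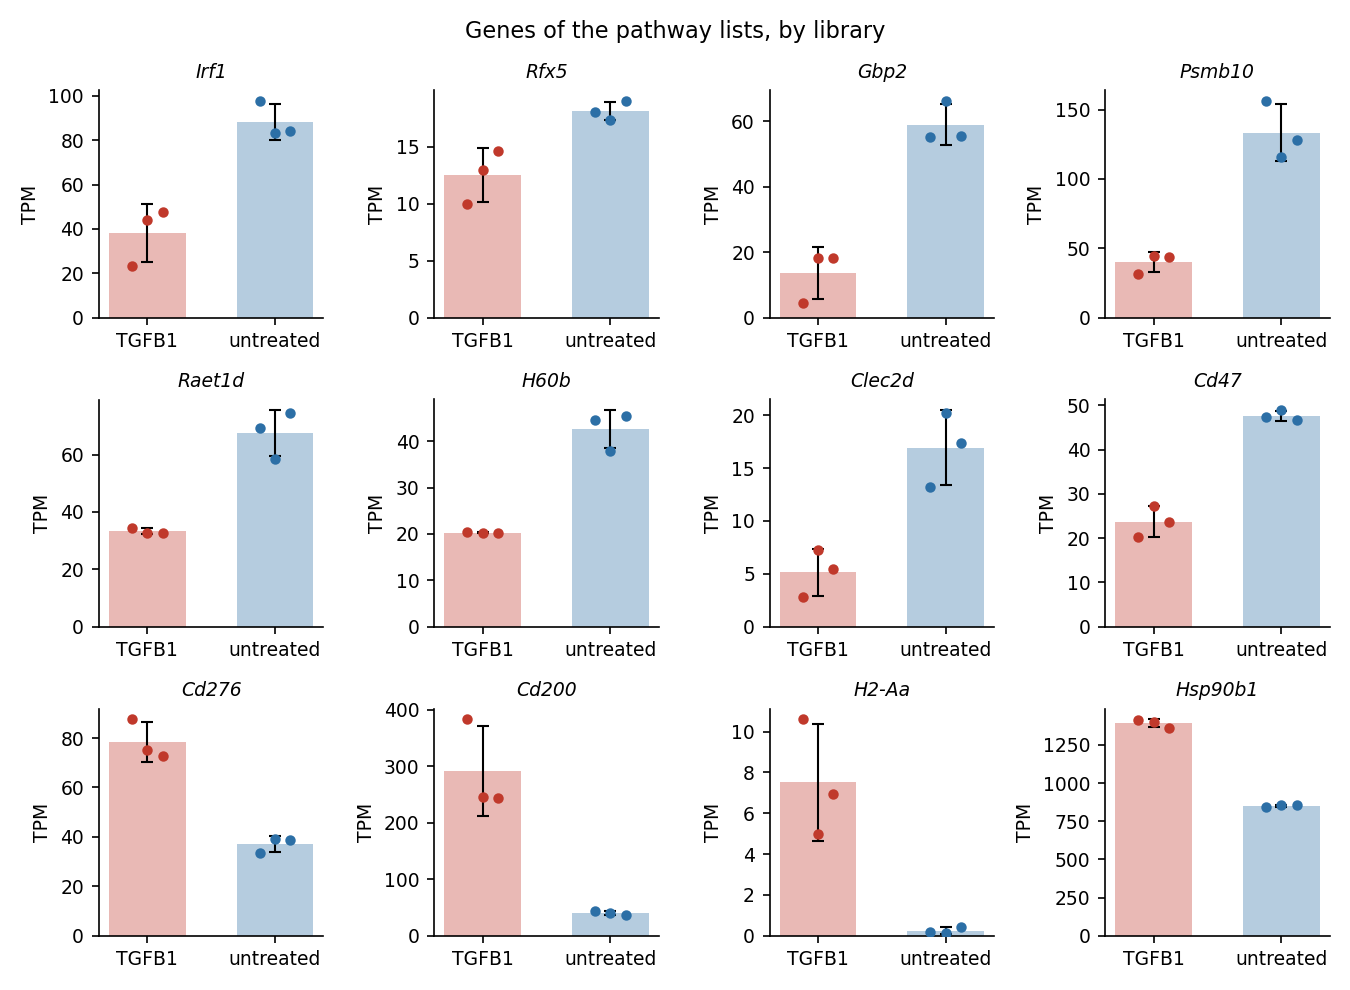
TPM (y axis, from 0) of 12 genes of the pathway lists in each library (points), with bars at the group mean and error bars of 1 SD, TGFB1 in red and untreated in blue. Irf1, Rfx5, Gbp2, Psmb10, Raet1d, H60b, Clec2d and Cd47 are lower with TGFB1 in every library, and Cd276, Cd200, H2-Aa and Hsp90b1 are higher in every library.

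A list of checkpoint ligands, PD-L1 stabilisers and CD47 was read beside Cd274, and not every gene on it restrains immune cells. Of 22 listed genes 15 were tested, 2 rose, 1 fell and 12 did not pass, so most of the list was not called. Cd200, a ligand of an inhibitory receptor on myeloid cells, was at 383, 246 and 244 TPM with TGFB1, against 43.2, 39.7 and 36.8 TPM untreated (2.81, SE 0.178, adjusted p = 0.000288). Cd276, the B7 relative B7-H3, was at 87.6, 75.0 and 72.7 TPM with TGFB1, against 33.4, 39.0 and 38.8 TPM untreated (1.06, SE 0.098, adjusted p = 0.000897). Both were separated without overlap. Cd47, the signal that macrophages read through SIRP-alpha, was at 20.3, 27.2 and 23.7 TPM with TGFB1, against 47.5, 48.9 and 46.7 TPM untreated (-0.99, SE 0.106, adjusted p = 0.00145). Cmtm6, which stabilises PD-L1 protein, did not pass (-0.01, adjusted p = 0.917). The PD-L2 gene Pdcd1lg2 was at 0 in all libraries, and Cd80 and Cd86 had means under 1 TPM.

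Because H2-T23 serves natural killer cells, ligands of their receptors and inhibitors of granule proteases were also counted. Of 16 listed symbols 12 were in the table and 7 were tested, of which 4 fell and 3 rose. Ligands of the activating receptor NKG2D were found in both directions: H60b, Raet1d and Raet1e fell, and Ulbp1 rose (0.47, adjusted p = 0.0214), with means of 32.2 TPM with TGFB1 and 22.7 TPM untreated. Ulbp1 and Raet1e were named after their values were seen. H60b was at 20.4, 20.2 and 20.3 TPM with TGFB1, against 44.5, 38.0 and 45.4 TPM untreated (-1.03, SE 0.082, adjusted p = 0.000539). Raet1d (-0.99, adjusted p = 0.00099) shares 67.1% of its stretches with its relative Raet1e, so these cannot be counted as separate. Clec2d, a ligand of the inhibitory receptor NKR-P1, was at 2.80, 7.21 and 5.49 TPM with TGFB1, against 13.2, 20.2 and 17.4 TPM untreated (-1.59, SE 0.291, adjusted p = 0.00849). The other genes that rose were the protease inhibitor genes Serpinb6b (1.07, adjusted p = 0.00175) and Serpinb9 (0.44, adjusted p = 0.00586), the second named after its value was seen.

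Class II molecules present peptides to CD4 T cells. In a list of class II presentation genes, those that were called went the other way, and these lie in the same region. Of 13 listed, 6 were tested, 5 rose, 0 fell and 1 did not pass. Without any 1 of the untreated libraries, 3 were higher. H2-Aa, the alpha chain of I-A, was at 10.6, 4.98 and 6.95 TPM with TGFB1, against 0.196, 0.113 and 0.438 TPM untreated (2.72, SE 0.252, adjusted p = 0.000898). H2-Ab1, its beta chain, was at 5.26, 1.25 and 1.55 TPM with TGFB1, against 0, 0.122 and 0 TPM untreated (1.67, adjusted p = 0.0191), a call lost in 4 of 15 alternatives and highest in TGFB1 replicate 1. These 2 genes had a mean under 1 TPM in untreated libraries and reached the filter through the TGFB1 group. H2-DMa (0.99, adjusted p = 0.00502) and H2-DMb1 (0.53, adjusted p = 0.00306), which encode the peptide exchange factor, also rose. H2-DMb1 shares 31.4% of its stretches with H2-DMb2, the other gene that rose (0.31, adjusted p = 0.0411), named after its value was seen. These 2 rises may therefore not be separate. The class II activator Ciita and the invariant chain Cd74, which lie on other chromosomes, stayed under the filter. Cd74 was at 0, 0.0593 and 0.275 TPM with TGFB1, against 0.364, 0.798 and 0.815 TPM untreated, so lower without overlap. Whether the low level of immune cell markers above has a part in the class II values was not tested.

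The 6 genes of the set on chromosome 17 lie between Tapbp and H2-T23, both included, from 33915899 to 36032855, a stretch in which 85 genes were tested. Of these, 19 (22.4%) rose and 10 (11.8%) fell, beside 15.8% and 14.6% of all tested genes, and their median was 0.02. Without these 6, 79 remained, of which 19 (24.1%) rose and 7 (8.86%) fell. Genes of both directions were neighbours there: Psmb9, Tap1, Psmb8 and Tap2 follow each other, and H2-DMa and H2-DMb1, which rose, lie just before them.

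**Figure D5:**
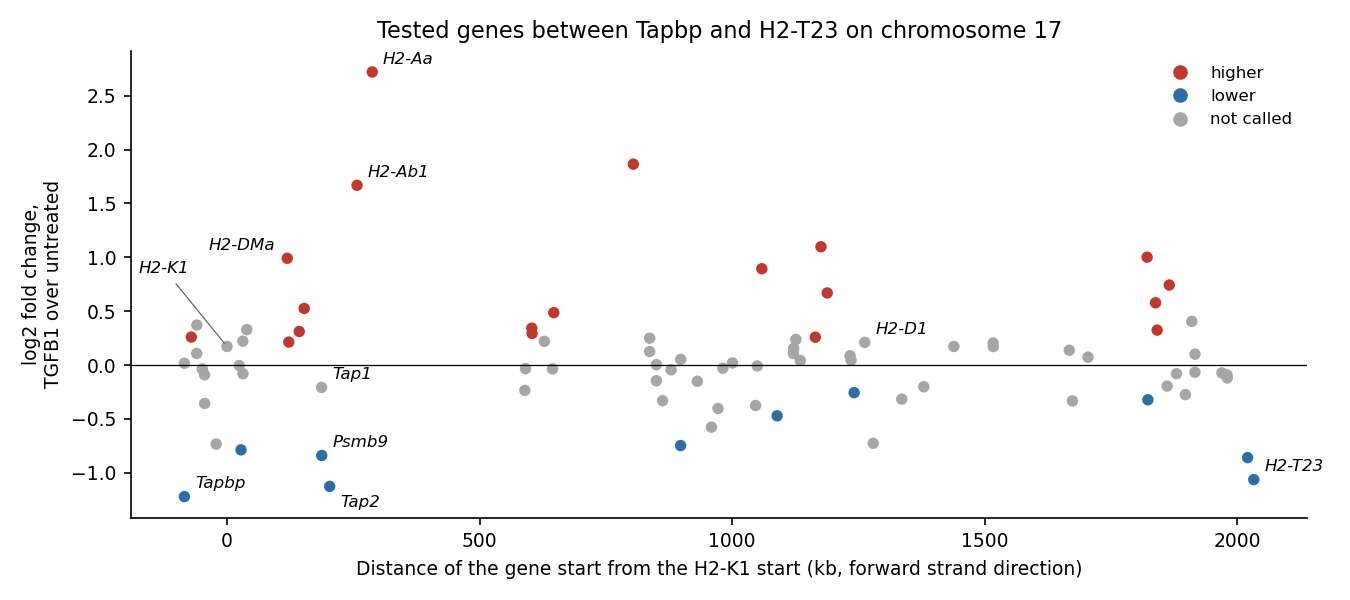
Log2 fold change, TGFB1 over untreated (y axis), of the 85 tested genes between Tapbp and H2-T23, against the distance of each gene's start from that of H2-K1 in kb (x axis); red points rose, blue points fell and grey points were not called. Lower genes sit at both ends (Tapbp at -1.22, H2-T23 at -1.06) and among higher class II genes near Tap2.

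The genes whose pattern over the 6 libraries was closest to that of H2-K1, by the root-mean-square difference in log2(TPM + 1) after subtracting each gene's untreated mean, were Tm9sf3 (0.0070), Rptor (0.0154), Chmp7 (0.0188), Txndc15 (0.0211) and Tor1aip2 (0.0219). For Cd274 they were Dus3l (0.0234), Il1r1 (0.0253), Rnf25 (0.0269), Ppox (0.0314) and Prmt3 (0.0325). Both sets were drawn from genes that averaged 5 TPM or more, and such closeness over 6 libraries of small differences is a description only.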

How the data were processed

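RNA of 3 TGFB1-treated and 3 untreated m1102 libraries was compared. Per the labels' protocols, libraries were made from 250 ng of total RNA with poly(A) selection and a directional second-strand kit. Kallisto 0.44.0, sleuth 0.30.0 and GRCm38 were used, per the submitters' processing notes, which give no roles. The authors deposited a signal on the TPM scale for each gene and library. These values are not plain TPM, since column totals ran from 983434 to 1026702. Median ratios to the geometric mean library were 0.9905 to 1.0134. The table holds no read counts, so depth is unknown. The sources used here do not explain the prefix Mono in its column names.

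Groups came from the labels, and columns were tied to samples by group and number in their names. Values were taken as log2(TPM + 1), genes with a mean under 1 TPM were left out, and the other 12257 entered limma 3.58.1 under R 4.3.3 (lmFit, eBayes with an intensity trend). P-values are two-sided and adjusted over all of them. Ratios were compared by exact permutation in Python 3.11.15 with scipy 1.17.1. The limma step was also run on simulated data with normally distributed values, few changed genes and no outlying library. That setting differs from these data, so the calls draw no support from it. For a repeated symbol the row of highest mean was used.

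The members and lists were chosen with earlier results of these data known. Lists are described by counts and medians, with no test of a list. Named genes are the 10 genes, all other listed heavy chains and proteasome subunits, from each other list the called genes with the largest changes (4 at most), a set of regulators and markers, and the 5 closest patterns to H2-K1 and to Cd274. The table shared 35101 gene IDs with GENCODE M21 and 587 were not in it. None of the 10 genes was among the 286 tested rows whose values equal another row's. The share of 31-base stretches found in another gene was computed from M21 transcripts. Alternatives covered 2 pseudocounts, 2 filters, 3 scalings, no trend, a replicate block, equal rows reduced to 1 and each library left out.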

Additional observations from a re-analysis of the deposited data

How the results depend on the processing

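Tapbp, Tap2, Erap1 and H2-T23 were called lower in all 16 alternatives, so 4 genes of the set were lower in each. The number higher was 0, and 1 after rescaling to totals that leave out mitochondrial and the top 20 genes (H2-K1), with the replicate block (H2-D1) and without TGFB1 replicate 1 (H2-D1). Leaving out 1 library at a time gave between 0 and 1. Over 84 named genes and 1331 values under alternatives, 1228 kept direction and side of the threshold, 66 lost their call, 10 gained one and 27 changed sign, all of genes that were not called. Some genes had no value under the filter of 5 TPM.

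The log2 difference, TGFB1 minus untreated, in the heavy chain to B2m ratio was -0.25 with geometric means, in which H2-T23 weighs more. It was 0.13 to 0.17 without 1 library. The same difference in the immunoproteasome ratio was -1.14 with geometric means and -2.003 to -1.679 without 1 library. With 1 library left out the exact permutation test of either ratio cannot go below p = 0.2.

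Sign changes under other scalings were those of Rela (-0.007) and Prmt3 (-0.009) with median-of-ratios scaling, and, after rescaling, Cmtm6 (0.032), Dus3l (0.041), Il1r1 (0.023), Rnf25 (0.037) and Ppox (0.043). With 1 library left out, B2m ran from -0.056 to 0.081, Fcgrt from -0.053 to 0.284, Psmb7 from -0.004 to 0.113, Rela from -0.036 to 0.062, Cmtm6 from -0.060 to 0.068, Dus3l from -0.048 to 0.067, Il1r1 from -0.070 to 0.065, Rnf25 from -0.048 to 0.052, Ppox from -0.073 to 0.084 and Prmt3 from -0.033 to 0.069. The cause was not tested.

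Over all tested genes 1937 were higher and 1788 lower. Rescaling gave 2342 and 1436, which is 62% of calls higher against 52%. Fewer were called without any 1 of the untreated libraries and without TGFB1 replicate 2 or 3. The fewest were called without untreated replicate 3 (1113 higher, 917 lower). More were called without TGFB1 replicate 1 (2024 higher, 1926 lower). A call lost with 1 library left out therefore goes with a drop in calls over all genes. Same-numbered libraries did not deviate together in every pair (correlations of 0.198, 0.153 and -0.038), and TGFB1 replicate 3 correlated best with untreated replicate 2 (0.184), so the numbers were not taken to pair the libraries. With the replicate block 1906 genes were higher and 1924 lower.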
